A study of Arachis hypogaea with 14 samples.

Results

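The small RNAs described here are the candidates of 23 to 25 nt that the authors predicted in peanut (Arachis hypogaea) seeds. They were chosen from the deposited small RNA table by a name that marks a predicted candidate and by a sequence of 23 to 25 nt, with each sequence counted once. This gave 279 of the 795 sequences in the table, and 279 of its 382 predicted candidates. Of the 279, 273 were 24 nt long, 5 were 23 nt and 1 was 25 nt, the longest length in the table. The seeds came from the recombinant inbred lines 8106, with medium pods, and 8107, with super-sized pods, both of the 8th generation, collected 15 and 35 days after flowering (DAF). Each of the 4 groups had 3 small RNA libraries, 12 in all, and 2 degradome libraries, 1 per line with both stages together, captured cleaved transcripts. Whether replicates are separate plants is not stated, and a p-value here covers the spread between libraries only, which may be technical.

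In plants, small RNAs of 24 nt are mostly short interfering RNAs that the polymerase Pol IV, the RNA-dependent RNA polymerase RDR2 and the Dicer-like enzyme DCL3 make from transposons and repeats. In Arabidopsis, AGO4 and related Argonautes take them up, often when the first base is A, and guide DNA methylation to matching loci, a process called RNA-directed DNA methylation. MicroRNAs are shorter, are cut from hairpins by DCL1, usually begin with U and direct the cleavage or repression of transcripts through AGO1. Seeds are known as tissues rich in 24 nt small RNAs.

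Most of the 23 to 25 nt candidates began with A, unlike those of the other lengths. To show this, 7 of those named in the comparisons are printed 5′ to 3′, in DNA letters as the table gives them, with the first base in capitals.
PC-3p-23476_334: Agagaacgaaggcacaatgagagc
PC-3p-177149_33: Acttcacgtgaagtcgattgtacc
PC-3p-74264_106: Ataaacgggctggcccgatgggtt
PC-5p-94368_80: Aattcaggtgcagtcgactttagg
PC-3p-35368_226: Aagggtcacggatttgttactccc
PC-5p-119064_59: Tatggtgaagctagtgaattgggt
PC-3p-41130_196: Aaagtctgctgtctctgcttctgg
Of the 279 candidates, 213 (76.3%) began with A, 41 with T, 13 with C and 12 with G. Among the 63 predicted candidates of 21 nt 19.0% began with A and 44.4% with T, among the 33 of 22 nt 24.2% and 63.6%, and among the 273 known miRNA entries 19.0% and 45.8%. Weighted by their values, 69.8% of the 23 to 25 nt candidates' signal came from sequences that begin with A. The last base was C in 152 of them (54.5%), and 93 ended in CC. The median GC content was 45.8%, against 42.9% for the predicted 21 nt and 45.5% for the predicted 22 nt candidates.

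**Figure D1:**
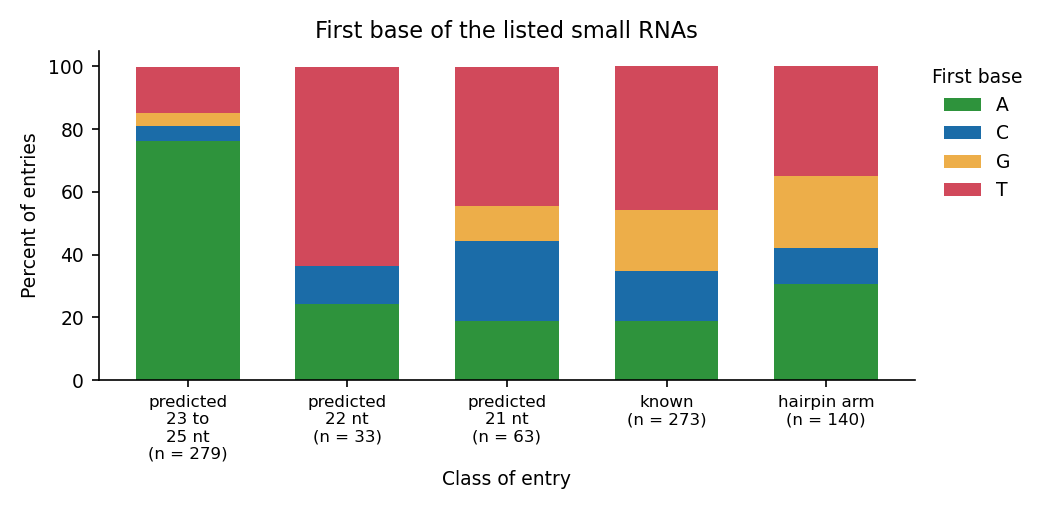
Percent of entries (y axis) that begin with each base, by class of entry (x axis). The predicted candidates of 23 to 25 nt begin with A in 76.3% of cases, against 19.0% to 30.7% in the other classes shown.

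Many of the candidates were variants of each other. The 12-base word found in the most of them was GACTGCACCTGA, which 28 of the 279 (10%) carried on either strand, 25 as written and 3 as its reverse complement TCAGGTGCAGTC. It was in 0 of the 63 predicted candidates of 21 nt, 33 of 22 nt and 7 of 18 to 20 nt, and in 0 of the 273 known entries and 140 hairpin arms. The 8 carriers with the highest mean value are shown with the word, or its reverse complement, in capitals, so that the bases around it can be compared.
PC-3p-39371_204: aaagtcGACTGCACCTGAgtttgc
PC-3p-38800_207: atcGACTGCACCTGAatttccacc
PC-3p-38671_208: aaaatcGACTGCACCTGAgtttcc
PC-5p-94368_80: aatTCAGGTGCAGTCgactttagg
PC-3p-33370_240: aaaatcGACTGCACCTGAgttttc
PC-3p-68367_116: aaaatcGACTGCACCTGAattttc
PC-3p-84063_92: aatcGACTGCACCTGAgtttctac
PC-3p-118552_60: agtgGACTGCACCTGAgtttcccc
Chained through shared words of 14 bases on either strand, 86 candidates (30.8%) formed 1 cluster, the next largest held 5, and 134 candidates shared such a word with no other. The word and the chaining were found by searching these sequences. The same chaining gave clusters of at most 3 among the predicted 21 nt and 2 among the predicted 22 nt candidates, which are fewer sequences. Of the 86 sequences, 74 began with A.

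Some of the cluster of 86 overlapped entries named after an annotated peanut hairpin. On the same strand, 20 of its members shared 14 or more consecutive bases with an arm of the peanut MIR3509 hairpin, and 27 shared 12 or more. On either strand 33 shared 12 or more, and the other 53 did not. The name of the arm entry printed here marks 2 substitutions, 16AG and 20TG, so it is not the annotated arm itself. The arm is printed with the 3 candidates closest to it among those described by value, the bases that differ from the arm in capitals.
ahy-MIR3509-p3_2ss16AG20TG: acttcacgtgaagtcgactgcacc
PC-3p-113518_63: acttcaTgtgaagtcgaTtgcacc
PC-3p-177149_33: acttcacgtgaagtcgaTtgTacc
PC-3p-117365_61: aTttcacgtgaagtcgactgcaTc
Counted from 1 at the 5′ end and with the candidate's base first, the changes are T7C and T18C for PC-3p-113518_63, T18C and T21C for PC-3p-177149_33, and T2C and T23C for PC-3p-117365_61. PC-3p-113518_63 and PC-3p-177149_33 differ from each other by T7C and C21T. Reads of such close sequences may be split or shared between entries, so each value of the cluster's members is uncertain as the level of a separate molecule. Outside the cluster, PC-5p-22873_342 holds the whole of the entry gma-MIR1509b-p5_2ss11AG18GA plus 1 base at its 5′ end. That entry is named after a soybean hairpin arm, with 2 substitutions marked in the name.
PC-5p-22873_342: cTTAATCAAGGGAATCACAGTTG
On the same strand, 3 of the 279 candidates shared 20 or more consecutive bases with a known or hairpin arm entry. They were 1 of the cluster with the MIR3509 arm, PC-5p-22873_342, and PC-3p-126784_54 with forms of miR1515.

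Both arms of a predicted hairpin were listed for 14 hairpins with a candidate of this length, and in 7 of these both arms were candidates of 23 to 25 nt. Arms cut from a hairpin or duplex by a Dicer-like enzyme typically overlap with a short 3′ overhang at each end. Of the 14 hairpins 8 had a 3′ overhang at both ends, 6 of them of 1 to 3 bases. Of the 7 with both arms among the candidates 4 had one at both ends and 3 did not. Pairs that did are shown with the bases that pair without gaps in capitals, as examples with overhangs of 2 and 1 bases.
PC-5p-45435_177: TCGgTcAACCaCCAAtAGAACTtg
PC-3p-6036_1126: AGTTCTgTTGGaGGTTaAtCGAga
PC-5p-78986_99: AATTTGTGGGCCACGAGACTTTTt
PC-3p-52859_152: AAAAGTCTCGTGGCCCACAAATTc
The first pair matched at 18 of 22 overlapping bases with 3′ overhangs of 2 bases on both strands. The second matched at 23 of 23 bases with overhangs of 1 base on both. PC-3p-23476_334, the candidate with the most significant differences below, paired at 19 of 21 bases with the 21 nt candidate PC-5p-53453_150, with a 3′ overhang of 2 bases on its own strand and none on the other. No genome was used here, so the positions of the loci are not given.

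As a group these candidates were a minor share of the listed small RNAs, and that share varied widely among the replicates of each group. Values are the authors' normalized reads, given in the order of replicates 1, 2 and 3. The 279 candidates held 0.689, 0.259 and 0.495% of a library's listed values in 8106 at 15 DAF (mean 0.481 ± 0.215, SD, n = 3). In 8106 at 35 DAF they held 0.324, 0.0605 and 0.677% (0.354 ± 0.309). In 8107 at 15 DAF they held 0.389, 0.133 and 0.272% (0.265 ± 0.128). In 8107 at 35 DAF they held 0.633, 0.228 and 0.884% (0.581 ± 0.331). Replicate 2 was the lowest of its group in all 4 groups, and with it the ranges of every pair of groups overlapped. Without replicate 2 the means were 0.592, 0.501, 0.331 and 0.758% in the same order of groups. The libraries left then did not overlap between the stages in 8107 or between the lines at 15 DAF, and did overlap between the stages in 8106 and between the lines at 35 DAF. The shares also depend on the denominator. With the 2 most abundant entries of the table left out of it, the means over all 3 replicates were 1.202, 1.17, 0.545 and 1.13%, so that the mean at 35 DAF was no longer higher in 8107 than in 8106.

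**Figure D2:**
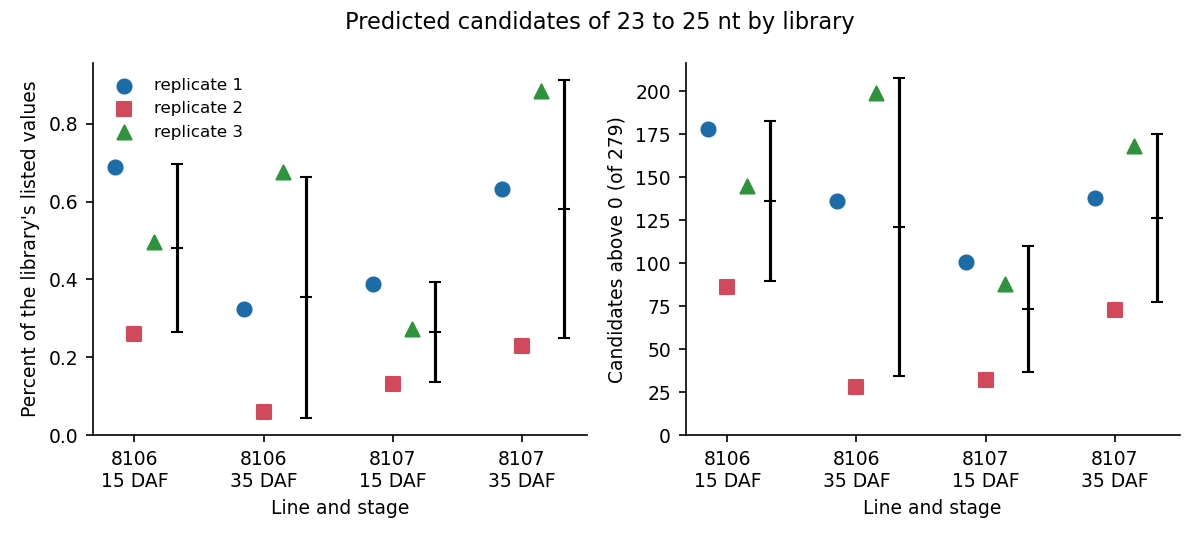
Left, percent of each library's listed values held by the 279 predicted candidates of 23 to 25 nt. Right, number of them with a value above 0. Symbols are libraries, by replicate number, and black bars are the mean ± SD of 3 libraries. Replicate 2 is lowest in each group.

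Replicate 2 differed from the others by length, which touches every result on these candidates. Their summed value in replicate 2 was 0.423 of the mean of replicates 1 and 3 in 8106 at 15 DAF, 0.131 in 8106 at 35 DAF, 0.421 in 8107 at 15 DAF and 0.332 in 8107 at 35 DAF. The known entries and hairpin arms of the same lengths were also lower in replicate 2, at 0.573, 0.311, 0.7 and 0.47. The predicted 22 nt candidates stood at 0.861 to 0.985, the predicted 21 nt candidates at 0.941 to 1.09 and the known entries of all lengths at 0.971 to 1.12. From 28 to 86 of the 279 candidates were listed above 0 in a replicate 2 library and 88 to 199 in the other 8. The reads recovered for the replicate 2 libraries, 937056 to 3243623, lay within or above the range of the other 8, 580011 to 2473056. What made replicate 2 differ was not tested, and counts are therefore given with and without it. For such alternative counts, here and in each comparison below, shares over all entries are not given. They show how the calls depend on the libraries and settings and are not a result about the candidates. The model used below has no term for the replicate number. With such a term more candidates were called in each comparison, as the closing section gives.

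**Figure D3:**
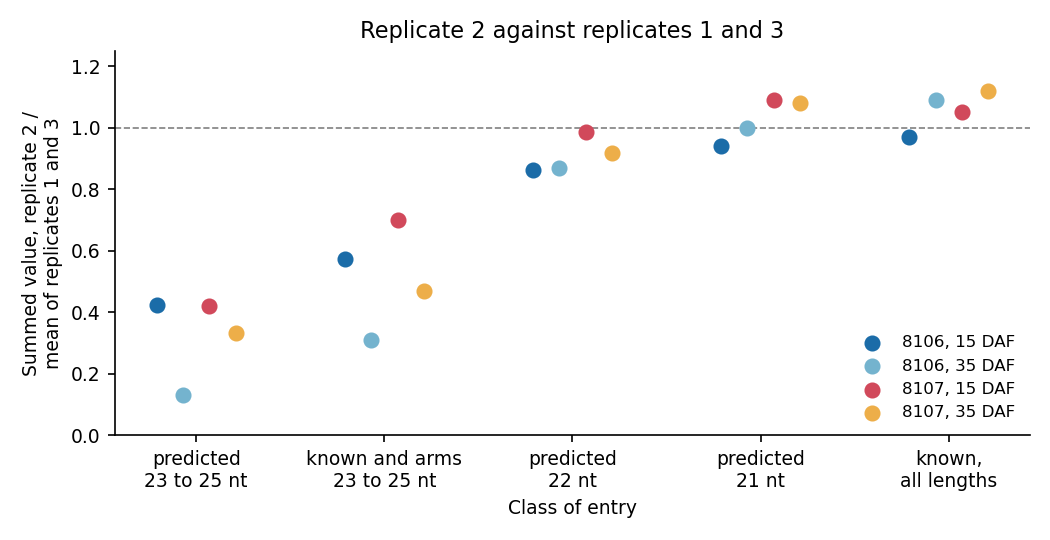
Summed normalized reads in replicate 2 divided by the mean of replicates 1 and 3 (y axis), by class of entry (x axis) and group (colour). The dashed line marks equality. The ratio is 0.131 to 0.423 for the predicted 23 to 25 nt candidates and 0.941 to 1.09 for the predicted 21 nt candidates.

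Most candidates were seen in few libraries. Of the 279, 130 were listed above 0 in 1 to 3 libraries and 14 in all 12. A 0 is not absence, because 11 of the 12 libraries list nothing under 6 reads. Listed in 8106 alone were 60 candidates, in 8107 alone 31, at 15 DAF alone 15 and at 35 DAF alone 72. The same counts over all entries are not given. Listing also varied by library, with 28 candidates in replicate 2 and 199 in replicate 3 of 8106 at 35 DAF. No difference between lines or stages is therefore read from these counts. The value passed 10 in at least 3 libraries for 87 of them, 83 of 24 nt, 3 of 23 nt and 1 of 25 nt, and these 87 were tested. Any group could supply these libraries. A candidate that passed only with the group where it was high has a p that is not independent of the filter. This is marked below for some calls and may hold for others. The tested 87 held 81.6% of the candidates' summed values and the 10 highest held 47.0%. The median tested candidate had a mean of 10 normalized reads, and the median standard error of a log2 difference was 1.19. For the 308 other tested entries these were 47.5 and 0.343.

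PC-3p-2159_2640 was the most abundant candidate. It stood at 425, 174 and 304 in 8106 at 15 DAF and at 439, 142 and 695 in 8106 at 35 DAF. In 8107 it stood at 170, 63.7 and 146, and at 213, 157 and 263. It was lower in 8107 than in 8106 in each replicate 1 and 3 library, but its ranges overlapped at 35 DAF. PC-3p-6036_1126, the 3p strand of the first pair printed above, stood at 517, 216 and 382, then 313, 89.1 and 565 in 8106, and at 259, 144 and 176, then 164, 65.4 and 232 in 8107. Its partner PC-5p-45435_177 averaged 60.9 over the 12 libraries, against 260.2 for PC-3p-6036_1126. Of the 10 most abundant, 3 passed a test in at least 1 comparison, namely PC-3p-4782_1381, PC-3p-23476_334 and PC-3p-47280_170. Of the 87 tested candidates 24 (27.6%) did so, while each single comparison already called 22.5% to 52.4% of all 395 tested entries. PC-5p-42180_191 and PC-5p-13201_560, also among the 10, share 13 bases, the end of the first and the start of the second.

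At 15 DAF, 6 of the 87 tested candidates differed between the lines (limma on log2(value + 1), Benjamini-Hochberg adjusted p under 0.05 over all 395 tested entries), 1 higher in 8107 and 5 lower. That is 6.9%, against 22.5% of all 395 tested entries (15.7% higher, 6.84% lower). PC-3p-35368_226 stood at 32.8, 25.3 and 24.2 in 8107 and at 0, 0 and 2.94 in 8106 (log2 difference 4.16 ± 0.87 SE, adjusted p = 0.00739, and 0.000468 to 0.208 over 27 alternatives). PC-5p-119064_59 went the other way, at 25.1, 20.1 and 31.1 in 8106 and listed at 0 throughout 8107 (adjusted p = 0.00622, and 1.22e-05 to 0.164). Both kept the call when any 1 library was left out, and the first lost it without replicate 1 of every group, the second without replicate 1 or without replicate 3. Both passed the filter on low values only with the group where they were high, so neither p is independent of the filter.

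PC-3p-89854_85 (27.0, 6.93 and 17.6 in 8106) and PC-3p-100160_75 (20.5, 8.31 and 12.6) were listed at 0 in all 3 libraries of 8107 at 15 DAF. Their adjusted p were 0.0226 and 0.0217, and both lost the call without 8106 replicate 1 or 3 or without 8107 replicate 2 or 3, the first also without 8107 replicate 1 (0.0536 to 0.0889 and 0.0625 to 0.0773). Over 27 alternatives each they ranged from 0.000891 to 0.272 and from 0.00159 to 0.166. PC-3p-100160_75 reached 10 in 8106 alone, so its p is not independent of the filter. PC-3p-47280_170 stood at 50.3, 28.8 and 59.6 in 8107 against 175, 103 and 152 in 8106 (-1.64 ± 0.46, adjusted p = 0.0268). It lost the call without 8106 replicate 1 or 3 or 8107 replicate 1 or 2 (0.0508 to 0.0981), and with equal totals over the 23 to 25 nt entries (0.146, and 0.00188 to 0.272 over 28 alternatives). PC-5p-94368_80 stood at 12.3, 9.59 and 14.5 against 42.8, 31.9 and 35.3 (-1.525 ± 0.335, adjusted p = 0.00981), and lost the call without 8106 replicate 1 (0.0601), without replicate 1 or replicate 3 of every group and with equal totals over the 23 to 25 nt entries (0.24, and 0.000282 to 0.24 over 27 alternatives). The groups did not overlap for 12 of the 87, against 44.1% of the 395.

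The median log2 difference of the 87 at 15 DAF was -0.82, against -0.09 over all 395 entries, with 75 of the 87 below 0. This describes candidates that passed a filter on low values and is not a test. The count of calls was 13 (2 higher, 11 lower) without replicate 2, 0 without replicate 1 and 1 without replicate 3, each over all groups. Left out alone, 8106 replicate 1 gave 2 calls, and 8106 replicate 3 and 8107 replicate 2 gave 3 each. No shares over all entries stand beside these counts, so they are not a result about the candidates.

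At 35 DAF, 14 of the 87 (16.1%) differed between the lines, 6 higher in 8107 and 8 lower, against 52.4% of the 395 entries (32.2% higher, 20.3% lower). PC-3p-23476_334 had 359, 281 and 401 normalized reads in 8107 and none listed in 8106, at 0 in each library (adjusted p = 7.07e-09). PC-3p-177149_33, which differs from the MIR3509 arm at 2 bases, stood at 11.9, 10.7 and 20.8 in 8107 at 35 DAF and was listed at 0 in each of the other 9 libraries (adjusted p = 2.49e-05). It passed the filter on low values through that group alone, so its p is not independent of the filter. PC-3p-74264_106 stood at 8.08, 4.69 and 9.49 in 8106 and at 0 in each library of 8107 (adjusted p = 8.66e-05). These calls held in all 28, 27 and 27 alternatives run on them. The filter of 10 or more in 6 libraries dropped PC-3p-177149_33 and PC-3p-74264_106, and fits without some libraries did not apply the filter again.

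PC-3p-107243_68 stood at 17.9, 8.95 and 19.2 in 8107 and at 0 in the 3 libraries of 8106 (adjusted p = 0.0102, and 0.000527 to 0.0886 over 27 alternatives, lost without replicate 1 or without replicate 3). PC-3p-113518_63, which differs from PC-3p-177149_33 at 2 bases, stood at 32.8, 14.3 and 55.3 against 0, 0 and 12.2 (3.70 ± 1.08, adjusted p = 0.0165). It lost the call without 8106 replicate 1 or 2 or 8107 replicate 3 (0.0503 to 0.0644), without replicate 1 or replicate 2 of every group and in a fit of the 6 libraries alone (0.00144 to 0.157 over 27 alternatives). Both were higher in each library of 8107 than in any of 8106. Both needed libraries of 8107 at 35 DAF to pass the filter on low values, so neither p is independent of the filter.

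Other candidates were lower in 8107 at 35 DAF. PC-3p-41130_196 stood at 10.4, 0 and 0 against 51.7, 20.8 and 59.6 (-4.19 ± 0.85, adjusted p = 0.00209, and 2.52e-05 to 0.0737 over 28 alternatives, lost without replicate 3). PC-3p-37362_215 stood at 17.9, 0 and 0 against 76.7, 21.4 and 182 (-4.68 ± 1.19, adjusted p = 0.00789, and 0.000542 to 0.159, lost with voom at 0.12, in a fit of the 6 libraries alone at 0.0641 and without replicate 3). PC-3p-4782_1381 stood at 88.0, 40.3 and 76.9 against 443, 111 and 676 (-2.29 ± 0.60, adjusted p = 0.00953, and 0.000218 to 0.124, lost with equal library totals, in a fit of the 6 libraries alone and without replicate 1 or replicate 3). In all 3 the groups did not overlap.

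The groups at 35 DAF did not overlap for 8 of the 87 candidates, against 52.7% of the 395, and the median difference was -0.13 against 0.03. The balance of directions moved with the settings, and the reason was not tested. Equal library totals gave 9 higher and 6 lower with the median of all entries at 1.01, quantile normalization 5 and 14 with it at -0.38, median centring 4 and 12 with it at -0.37, and voom on recovered reads 14 and 6 with it at 1.2. The median of the 87 also turned positive, to 0.09, 0.59 and 0.44, without 8106 replicate 1, 8106 replicate 3 or 8107 replicate 2. Without replicate 2 there were 26 calls, 6 higher and 20 lower, against 6 without replicate 1, 4 without replicate 3, and 5 in a fit of the 6 libraries alone. Left out alone, 8106 replicate 1 and 8107 replicate 3 gave 7 calls each and 8107 replicate 1 gave 9. Shares over all entries are not given for these settings, so whether the counts moved for the candidates alone is not shown.

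**Figure D4:**
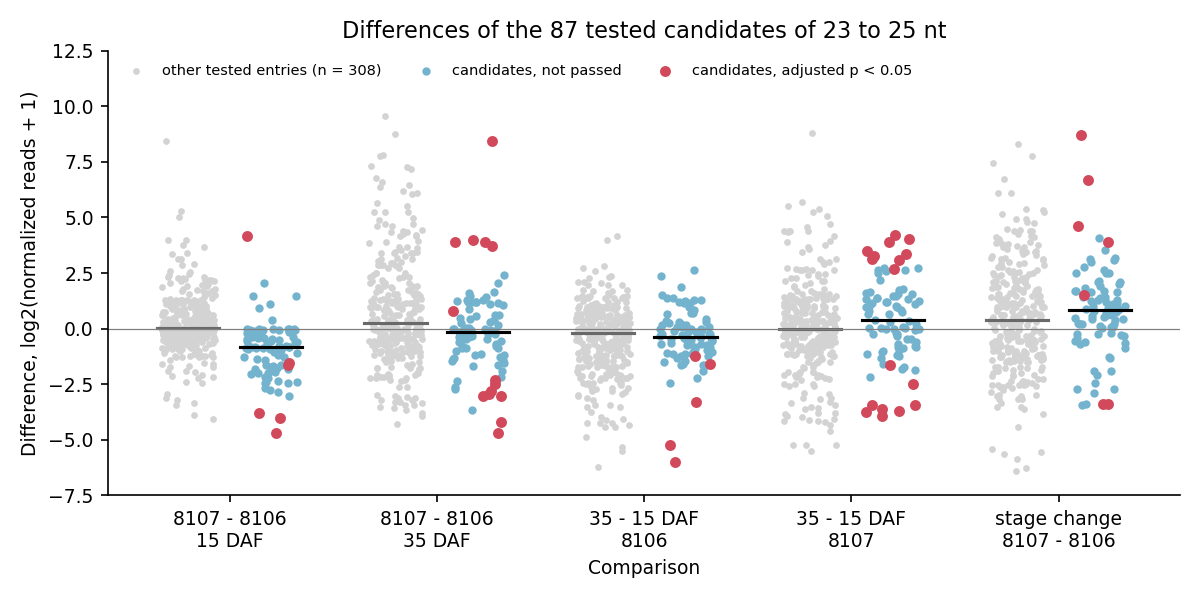
Difference in log2(normalized reads + 1) in the 5 comparisons (x axis) for the 87 tested candidates of 23 to 25 nt (right of each pair, red where adjusted p is under 0.05) and the 308 other tested entries (left, grey). Horizontal bars are medians. The highest candidate point at 35 DAF is PC-3p-23476_334.

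From 15 to 35 DAF in line 8106, 5 of the 87 (5.75%) changed and all 5 fell, against 36.2% of the 395 entries (13.2% higher, 23% lower). PC-3p-23476_334 fell from 89.2, 37.4 and 78.1 to 0 in all 3 libraries (adjusted p = 1.96e-07). PC-5p-94368_80, a carrier of the shared word on the opposite strand, fell from 42.8, 31.9 and 35.3 to 0 in all 3 (adjusted p = 1.27e-06). Both calls held in all alternatives, 28 and 27. PC-5p-132893_51 fell from 7.44, 8.31 and 10.9 to 0 in all 3 (adjusted p = 0.0125, and 5.24e-05 to 0.143 over 27 alternatives), and lost the call with equal totals over the 23 to 25 nt entries and without replicate 1 or replicate 3. PC-5p-94368_80 and PC-5p-132893_51 reached 10 at 15 DAF alone, so neither p is independent of the filter.

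The remaining calls in 8106 were a 23 nt sequence and the 25 nt one. PC-5p-22873_342, the 23 nt relative of miR1509, fell from 70.2, 50.9 and 70.9 to 21, 12.4 and 31.9 (-1.59 ± 0.34, adjusted p = 0.0038, and 1.3e-05 to 0.117 over 28 alternatives, lost with equal totals over the 23 to 25 nt entries and without replicate 1). The gma-MIR1509b arm entry it contains stood at 1437, 1400 and 1463 and then at 691, 741 and 631 in the same libraries. PC-5p-25190_313, the 25 nt candidate, named after its values were seen, fell from 66.5, 45 and 67.2 to 23.4, 20.8 and 30.5 (-1.22 ± 0.28, adjusted p = 0.00544). The 15 and 35 DAF groups did not overlap for 5 of the 87, against 44.6% of the 395.

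The median stage difference of the 87 in 8106 was -0.36 against -0.24 over all entries, and it turned to 0.27 without replicate 2 and to 0.77 without 8106 replicate 2 at 35 DAF alone. Without replicate 2 there were 11 calls, 5 that rose and 6 that fell, and without that 1 library 8, of which 3 rose. There were 2 calls without replicate 1 and 3 without replicate 3. Here too the counts lack shares over all entries and are not a result about the candidates. Quantile normalization gave 2 that rose and 5 that fell and turned the median of the 87 to 0.40, and equal library totals moved the median of all entries to -0.77.

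In line 8107, 17 of the 87 (19.5%) changed from 15 to 35 DAF, 9 that rose and 8 that fell, against 46.3% of the 395 entries (23% higher, 23.3% lower). PC-3p-23476_334, which fell in 8106, rose here from 53.2, 45.2 and 61.2 to 359, 281 and 401 (2.68 ± 0.31, adjusted p = 7.51e-05). PC-3p-177149_33 rose from 0 in all 3 libraries to 11.9, 10.7 and 20.8 (adjusted p = 4.12e-05). PC-3p-113518_63 rose from 5.70, 0 and 0 to 32.8, 14.3 and 55.3 (4.03 ± 1.08, adjusted p = 0.0117, and 0.00158 to 0.0758 over 27 alternatives, lost without replicate 2 or replicate 3). The call on the first of these 3 held in all 28 alternatives and that on PC-3p-177149_33 in all 27. PC-3p-177149_33 passed the filter through 8107 at 35 DAF alone, and PC-3p-113518_63 needed that group to pass. Neither p is therefore independent of the filter.

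PC-3p-89854_85 and PC-5p-114286_63 rose from 0 in all 3 libraries of 8107 to 8.95, 6.27 and 19.2 and to 13.4, 6.27 and 9.61 (adjusted p = 0.0216 and 0.0321). Both lost the call without any 1 of the 3 libraries at 15 DAF or without replicate 3 at 35 DAF, the second also without replicate 1 at 35 DAF (0.0511 to 0.0767 and 0.071 to 0.0915, and over 27 alternatives each 0.000794 to 0.162 and 0.000298 to 0.218). In 8106 at 35 DAF they stood at 12.9, 0 and 27.1 and at 10.5, 0 and 9.49.

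The 4 candidates with the greatest fitted fall in 8107 were listed at 0 in most of its libraries at 35 DAF. PC-3p-74264_106 fell from 16.1, 16.4 and 10.5 to 0 in all 3 libraries (adjusted p = 2.24e-05), and PC-5p-94368_80 from 12.3, 9.59 and 14.5 to 0 in all 3 (adjusted p = 1.26e-05), both in all 27 alternatives. Both reached 10 at 15 DAF alone, so neither p is independent of the filter. PC-5p-111568_65 fell from 15.2, 8.22 and 15.3 to 0 in all 3 (adjusted p = 0.00523, and 3.58e-05 to 0.0838 over 28 alternatives, lost without replicate 1 or replicate 3). PC-3p-41130_196 fell from 33.2, 20.5 and 27.4 to 10.4, 0 and 0 (-3.61 ± 0.85, adjusted p = 0.00568, and 9.44e-05 to 0.114 over 28 alternatives, lost without replicate 3). A near copy of PC-3p-74264_106 that differs by G13A, PC-3p-151728_42, stood at 11.4, 0 and 11.3 at 15 DAF and 8.95, 0 and 0 at 35 DAF. PC-3p-49239_164, which shares 23 bases with PC-3p-74264_106 at an offset of 1, stood at 15.2, 16.4 and 8.05 and then at 11.9, 0 and 24, so that its stage groups overlapped.

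The stage groups of 8107 did not overlap for 19 of the 87 candidates, against 58.0% of the 395, and the median difference was 0.40 against 0.06. The median turned to -0.18 without 8107 replicate 2 at 15 DAF. There were 7 calls without replicate 1, 4 without replicate 3 and 25 without replicate 2, 15 of which rose. On recovered reads, voom gave 18 that rose and 6 that fell, with the median of all entries at 0.39. Leaving out 8107 libraries alone gave 9, 10 and 9 calls without replicates 1, 2 and 3 at 15 DAF, and 9 and 7 without replicates 1 and 3 at 35 DAF. As above, shares over all entries are not given for these counts.

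The stage change itself differed between the lines for 7 of the 87 candidates (8.05%), 5 with a higher change in 8107 and 2 with a lower one, against 41.0% of the 395 entries (22.3% higher, 18.7% lower). PC-3p-23476_334, which fell to 0 in 8106 and rose in 8107, had the smallest adjusted p (3.18e-07), a call that held in all 27 alternatives. PC-3p-177149_33 (adjusted p = 0.000465) rose in 8107 and stood at 0 in 8106 at both stages, and PC-3p-74264_106 (adjusted p = 0.000661) fell to 0 in 8107 while 8106 stood at 11.2, 7.62 and 14.3 and then 8.08, 4.69 and 9.49. These calls ranged over 26 alternatives from 4.93e-05 to 0.0611 and from 5.32e-05 to 0.051, the first lost without replicate 1 or replicate 3 and the second without replicate 1. PC-5p-94368_80 is also among the 7, since it fell to 0 in both lines from different levels.

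The median difference of stage changes was 0.86 for the 87 and 0.52 for all 395, and that of the 87 was -0.26 without 8106 replicate 2 at 35 DAF. The directions again moved with the settings. Equal library totals gave 11 higher and 1 lower with the median of all entries at 1.32, quantile normalization 3 and 6 with it at 0.10, equal totals over the 23 to 25 nt entries 4 and 3, and voom 14 and 2 with it at 1.31. Without replicate 2 there were 14 calls, 8 higher and 6 lower, and 2 without replicate 1 or without replicate 3. As in the other comparisons, alternative counts stand without shares over all entries. Left out alone, 8106 replicate 2 or 3 at 35 DAF gave 11 calls each, 8106 replicate 1 at 15 DAF gave 3, and 4 calls each came without 8106 replicate 3 at 15 DAF, 8106 replicate 1 at 35 DAF, 8107 replicate 2 or 3 at 15 DAF or 8107 replicate 3 at 35 DAF.

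**Figure D5:**
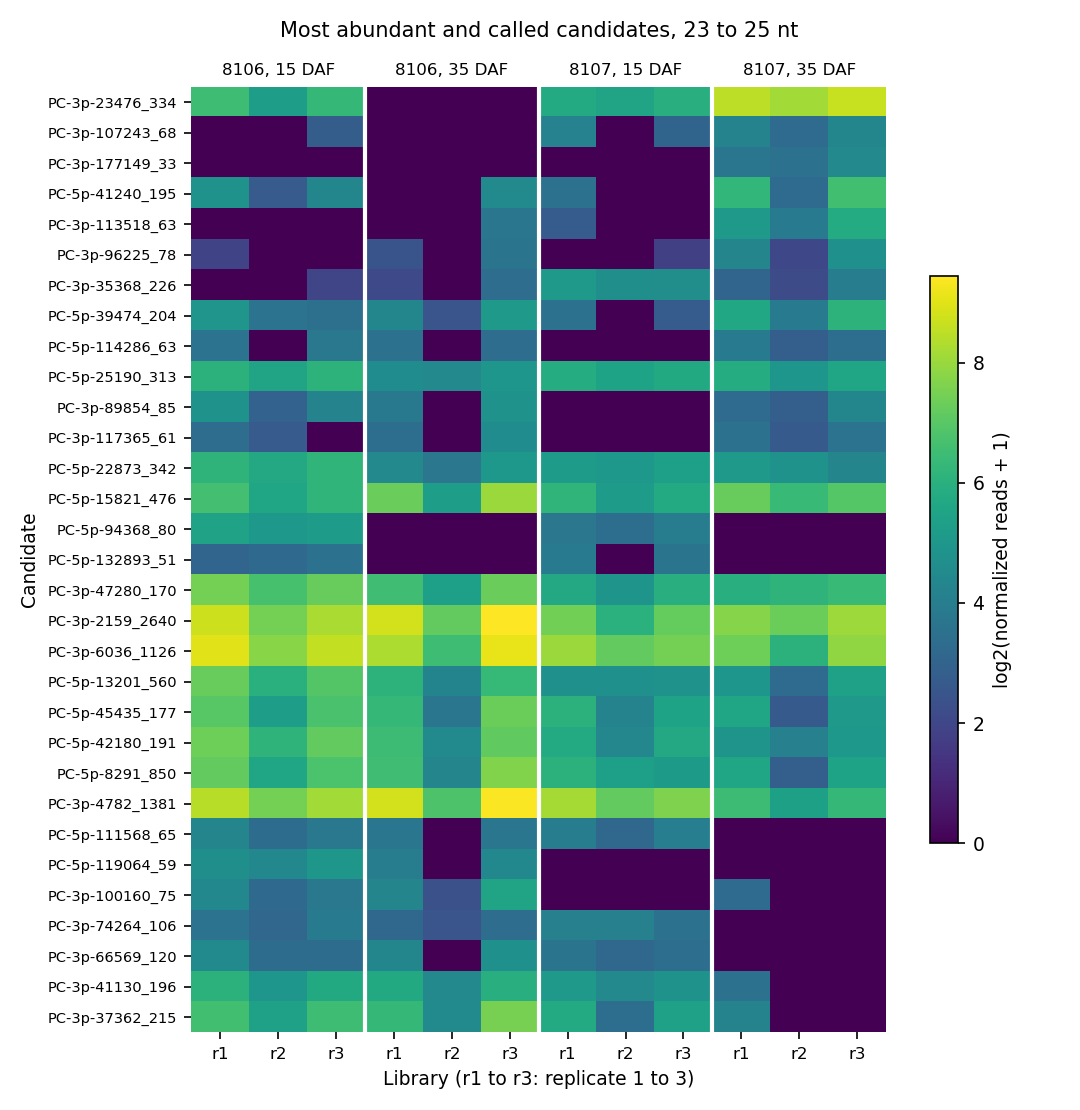
log2(normalized reads + 1) of the 10 most abundant and all called candidates (rows, ordered by the difference between 8107 and 8106 at 35 DAF) in the 12 libraries (columns). Dark cells are listed at 0. PC-3p-23476_334 is dark in 8106 at 35 DAF and brightest in 8107 at 35 DAF, and replicate 2 is darker than its neighbours in many rows.

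The cluster of 86 sequences made up more of the candidates in 8107 at 35 DAF than at 15 DAF. It held 20.9, 12.1 and 22.7% of the candidates' summed values there and 9.2, 2.73 and 7.11% in 8107 at 15 DAF. In 8106 it held 10.3, 7.43 and 9.48% at 15 DAF and 9.27, 1.83 and 13.3% at 35 DAF. The stage groups did not overlap in 8107 and did in 8106, and at 35 DAF the lines overlapped. Since the cluster was found in these data, this is a description with no test.

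The MIR3509 arm entry was also highest in 8107 at 35 DAF. Of the 86 sequences 28 were listed at 35 DAF alone, 14 in 8107 alone and 18 in 8106 alone. For all 279 candidates these counts were 72, 31 and 60. Listing varied by library and the same counts over all entries are not given, so no stage or line pattern is read from them. Of the 86 sequences 19 were tested. Of these 19, 3 rose and 1 fell from 15 to 35 DAF in 8107, and 0 rose and 1 fell in 8106. These are 21.1% and 5.26% of the 19, near the 19.5% and 5.75% of the 87 candidates and below the 46.3% and 36.2% of all 395 entries. The MIR3509 arm printed above stood at 581, 331 and 468 and then at 3754, 1559 and 4395 in 8107, and at 1204, 512 and 852 and then 728, 167 and 1365 in 8106, so that its 8107 libraries at 35 DAF were above all the others. PC-3p-117365_61, named after its values were seen, was listed at 0 in 8107 at 15 DAF and stood at 10.4, 5.37 and 11.2 at 35 DAF.

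Few of the candidates were paired with a cleaved transcript. Of the 279, 6 (2.15%) had a cleavage site in the authors' degradome table, against 20.6% of the predicted 21 nt and 27.3% of the predicted 22 nt candidates, 52.7% of the known entries and 40.0% of the hairpin arms. The 6 had alignment scores of 3.5 to 4, with 4 the poorest score in the table. The best scored, 3.5, joined PC-5p-104249_71 with AKR2, which in Arabidopsis is a chaperone that brings proteins to the chloroplast envelope. PC-3p-353548_8 was paired with BGAL8, a beta-galactosidase, on 2 transcripts at a score of 4. PC-3p-266461_15, PC-3p-383737_7, PC-3p-55089_146 and PC-5p-15821_476 were paired at 4 with transcripts that the table gives no symbol. The table gives no library for a site, so none can be assigned to a line.

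Transcripts of the pathway that makes and uses 24 nt small RNAs were looked up in the same table. Of 37 symbols of that pathway and of DNA methylation and demethylation, 5 stood in the degradome table and 0 with a candidate of 23 to 25 nt. The candidates have 11 of the 3630 lines of the table and these symbols 21, so few or no shared lines could arise, and nothing is read from the 0. DCL1, the Dicer-like enzyme of miRNA hairpins, had 8 lines, all with forms of miR162, and AGO1, which carries miRNAs, had 4 with gma-miR168a. SUVH9, which in Arabidopsis helps bring the RNA polymerase Pol V to methylated DNA, had 4 with an arm of the soybean MIR394c hairpin. The DNA demethylase ROS1 had 3 with arms of the peanut hairpins MIR3511 and MIR3516, and DML2, another demethylase, had 2 with that of MIR3511.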

How the data were processed

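The authors deposited normalized reads per library, a signal. The sources used here do not state how these were normalized. Bowtie stands, without version or role, in the submitters' processing notes. Per the labels' protocols, libraries were made with a TruSeq small RNA kit from a size-selected gel fraction. Each section of the table was read by its own header line. Within a library 98.2 to 99.4% of values above 0 were whole multiples of 1 step (tolerance 0.02 steps), that is 580011 to 3243623 reads a library, of which the candidates had 1246 to 10119. Totals of normalized reads were 464658 to 1086380. The degradome table holds an alignment score, per the file headers.

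limma 3.58.1 (R 4.3.3), with a trend, was run on log2(value + 1) of the 395 entries at 10 or more in at least 3 libraries. The model held a mean for each group, without a replicate block, and p-values were adjusted over all 395. It was run on simulated data that held no shared replicate effect and no limit at 6 reads. That run therefore cannot show how the model handles either. Differences on this scale can understate changes of low entries. They can also overstate them against a group listed at 0, since 11 of the 12 libraries list nothing under 6 reads. Where a group is listed at 0 the comparisons give values and p only. Fitted values that rest on such groups are given in the closing section for the difference of stage changes only. They depend on the pseudocount. Named are the 10 most abundant candidates, the 4 highest and 4 lowest called differences without overlap per comparison (6 smallest p for the difference of stage changes) and those in the degradome table. Members, lists and tests were chosen with earlier results of these data known. Count tests were not run on the normalized values. On recovered reads, voom was run as an alternative. Alternatives covered pseudocount, filter, scaling, repeated lines, the replicate block and left-out libraries.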

Additional observations from a re-analysis of the deposited data

Results flagged for a closer look

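For 7 candidates the change from 15 to 35 DAF differed between the lines by limma's test of the difference itself, in log2(normalized reads + 1) and as 8107 minus 8106. The fitted values of the first 5 named below rest on groups listed at 0 and depend on the pseudocount. They were 8.70 ± 0.44 for PC-3p-23476_334 (adjusted p = 3.18e-07), 3.90 ± 0.59 for PC-3p-177149_33 (0.000465), -3.39 ± 0.55 for PC-3p-74264_106 (0.000661), 1.52 ± 0.47 for PC-5p-94368_80 (0.0251) and 4.64 ± 1.5 for PC-3p-89854_85 (0.0306). PC-5p-41240_195 differed by 6.67 ± 2.05 (0.0241). It was listed at 27.0, 5.54 and 19.3 and then 0, 0 and 21.7 in 8106, and at 10.4, 0 and 0 and then 74.5, 8.95 and 96.1 in 8107, so the stage groups of both lines overlapped. PC-3p-41130_196 differed by -3.38 ± 1.21 (0.0453).

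Leaving out 1 library at a time ended none of these calls for PC-3p-23476_334, PC-3p-177149_33 and PC-3p-74264_106. It ended that of PC-5p-94368_80 without 8106 replicate 1 or 3 at 15 DAF or replicate 1 at 35 DAF (adjusted p 0.0501 to 0.078). It ended those of PC-3p-89854_85, PC-5p-41240_195 and PC-3p-41130_196 for 7, 8 and 10 of the 12 libraries (0.0517 to 0.0727, 0.0503 to 0.061 and 0.0607 to 0.0971). For PC-3p-89854_85 these were replicates 1 and 3 of 8106 at 15 DAF, all 3 of 8107 at 15 DAF and replicates 1 and 3 of 8107 at 35 DAF. For PC-5p-41240_195 they were replicates 1 and 3 of 8106 at 15 DAF, 1 and 2 of 8106 at 35 DAF, 2 and 3 of 8107 at 15 DAF and 1 and 3 of 8107 at 35 DAF. For PC-3p-41130_196 the call held without replicate 2 of 8106 at 35 DAF or replicate 1 of 8107 at 35 DAF. Over all alternatives the adjusted p of these 4 calls ranged up to 0.278, 0.184, 0.138 and 0.318. The fits without a library did not apply the filter again, and PC-3p-177149_33 passed it through 8107 at 35 DAF alone. PC-3p-74264_106 and PC-5p-94368_80 passed it through 15 DAF alone.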

How the results depend on the processing

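Of 42 calls on the named candidates, 10 held in every alternative, 23 with each single library left out and 35 without replicate 2. Of 1145 repeats 0 reversed a sign. Many of these calls were on groups that do not overlap, where leaving out libraries cannot reverse a sign. That 0 is therefore no evidence for the calls. Counts of calls are given here in the order 15 DAF, 35 DAF, stage in 8106, stage in 8107 and difference of stage changes. They ranged over left-out replicates from 0 to 13, 4 to 26, 2 to 11, 4 to 25 and 2 to 14. Without a filter on low values, with all 279 candidates tested rather than 87, they were 11, 39, 10, 41 and 21. With 10 or more in 6 libraries, and so fewer than 87 tested, they were 2, 7, 3, 7 and 4. The number tested thus changed with the filter. Shares over all entries are not given for the alternatives, so these counts are not a result about the candidates. With the replicate block the counts of calls were 13, 25, 7, 26 and 15, against 6, 14, 5, 17 and 7 in the fit reported. Same-numbered libraries had correlations of deviations of 0.039 to 0.419 for replicate 1, 0.512 to 0.677 for replicate 2 and 0.119 to 0.544 for replicate 3. Between different numbers the 36 correlations ran from -0.652 to 0.593, with a median of -0.23 and 8 over 0.1. By the rule used the fit reported took no block, as 1 of the 18 same-numbered pairs was under 0.1. That does not show that the numbers are unrelated, and this fit leaves any shared part in its error. What the numbers stand for is not stated. Equal library totals gave 12 for the difference of stage changes, every line of the table kept gave 8 for the stage in 8106, and the 6 libraries alone gave 5 at 35 DAF. Chosen after seeing the data, voom with sample quality weights on recovered reads gave 10, 20, 11, 24 and 16, equal totals over the 23 to 25 nt entries gave 4, 14, 2, 17 and 7, and these with replicate 2 left out 10, 26, 7, 31 and 13. The planned count tests were not run. With the 2 most abundant entries left out of the denominator the candidates' mean share was 1.202, 1.17, 0.545 and 1.13% in 8106 at 15 and 35 DAF and 8107 at 15 and 35 DAF. The cause of these shifts was not tested, apart from fewer or more entries and libraries in the fits that leave some out. Values under about 6 reads are listed at 0, so low candidates can differ from 0 by the limit of the table alone.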
